A study of Rattus norvegicus with 57 samples.

Results

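A set of 8 genes of T and natural killer (NK) lymphocytes was followed in rat liver during and after dosing with methapyrilene. They are Ptprc, Cd3g, Cd8a, Cd2, Klrd1, Nkg7, Gzmk and Ccl5, 8 of the 14217 genes that the array measures with a probe set of 1 gene symbol. The members were fixed by name, with earlier results of these data known. Each is annotated to at least 1 probe set that names no other gene, 11 of 31099 probe sets in all, and the probe set of highest mean log2 signal stood for the gene. Of the 8, 5 passed the filter on low signals, which asked for a signal above the median of all deposited values, 17.09, in at least 4 arrays. Ptprc and Ccl5 were above it in 57 of 57 arrays, Gzmk in 36, Cd3g in 18 and Nkg7 in 4, while Klrd1 was above it in 1 array and Cd8a and Cd2 in 0.

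T cells recognise peptides on other cells through the T cell receptor, which signals into the cell through the CD3 chains. NK cells carry no such receptor and are steered by activating and inhibitory receptors for MHC class I and related ligands, but both kinds of lymphocyte can kill by releasing granules with perforin and granzymes. The liver holds many resident lymphocytes in its sinusoids, NK cells being abundant among them, and more can enter the tissue after hepatocyte injury.

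The study gave male Han Wistar rats, 8 to 10 weeks old, 0, 30 or 80 mg/kg methapyrilene daily by mouth. Methapyrilene is an antihistamine known for its toxicity to rat liver. The vehicle was carboxymethylcellulose, which the control rats received too. Livers were taken on days 4, 8 and 15, and on day 24 from rats dosed for 14 days and then left undosed for 10 days. The 57 arrays form 12 groups of dose and day. Of these, 9 hold 5 animals, and 80 mg/kg on day 4, control on day 24 and 30 mg/kg on day 24 hold 4, where the protocol names 6 animals per group. Each array is RNA of a piece of whole liver, so that fewer cells of a type and less RNA per cell cannot be told apart.

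Genes of hepatocytes dominated the signals in every group, as the label liver has it. The 11 tested genes of a hepatocyte list summed to a median of 66650 in day 24 controls and 68488 in day 4 controls. Over the 12 groups these medians ran from 52588 at 80 mg/kg on day 8 to 81818.5 in day 15 controls. Arrays of 1 group correlated at a median of 0.974 over log2 signals (lowest 0.961), and 0 arrays were identical. The ratio of the 3' to the 5' actin control probe sets, a sign of RNA quality, had group medians of 4.27 to 5.29 on days 4, 8 and 15 but of 6.37 to 6.91 on day 24, in all 3 dose groups. Its highest values were 9.76 in control day 24 replicate 4 and 9.30 in 30 mg/kg day 24 replicate 4. The median signal of an array averaged 15.9 to 16.8 in the control groups and 17.5 to 19.99 in the 80 mg/kg groups, with the highest on day 24. Changes are therefore given on the deposited scale and, where it matters, after centring the arrays on 1 median.

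The promoters of Ptprc and Gzmk are shown because these genes rose on the most days at 80 mg/kg, 3 and 2, and because one marks all leukocytes and the other cytotoxic cells. RefSeq's table of the rat assembly GRCr8 held a promoter window for 6 of the 8 genes, from 250 bases before to 50 after the start. Ptprc lies at chr13:52259697-52259996 on the minus strand and Gzmk at chr2:46581966-46582265 on the minus strand, both printed 5' to 3' in the direction of the gene. Capitals mark motif letters, read on either strand.
Ptprc: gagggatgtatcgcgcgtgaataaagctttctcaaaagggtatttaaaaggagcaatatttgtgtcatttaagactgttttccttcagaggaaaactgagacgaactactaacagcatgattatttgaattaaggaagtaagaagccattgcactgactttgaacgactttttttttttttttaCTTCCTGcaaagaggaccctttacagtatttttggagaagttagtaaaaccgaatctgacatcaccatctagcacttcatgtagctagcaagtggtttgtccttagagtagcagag
Gzmk: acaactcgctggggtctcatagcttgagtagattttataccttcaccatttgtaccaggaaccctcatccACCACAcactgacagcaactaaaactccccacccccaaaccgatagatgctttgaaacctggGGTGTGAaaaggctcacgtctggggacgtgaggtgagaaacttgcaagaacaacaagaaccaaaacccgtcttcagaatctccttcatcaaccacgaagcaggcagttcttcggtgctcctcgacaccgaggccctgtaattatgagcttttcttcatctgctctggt
The capitals in Ptprc are the ETS letters CAGGAAG on the opposite strand, 66 bases before the start. In Gzmk they are the RUNX letters TGTGGT on the opposite strand, 180 bases before the start, and the T-box letters GGTGTGA, 118 bases before it. ETS and RUNX factors act in many blood cells, and T-box factors in cytotoxic lymphocytes. The ETS letters were in 3 of 6 windows of the set (Nkg7, Cd3g, Ptprc) and in 12.5% of all 33469 windows of that length, the RUNX letters in 3 of 6 (Nkg7, Gzmk, Cd2) and 17.3%, the T-box letters in 1 of 6 and 3.83%, and the NF-kB letters GGGNNTTCC in 0 of 6 and 5.92%. A match is a description of letters and no evidence of binding.

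Ptprc, which encodes CD45, the phosphatase on the surface of all nucleated blood cells, rose on days 8, 15 and 24 at 80 mg/kg. On day 8 its signals were 158.01, 143.95, 157.47, 163.24 and 141.82 at 80 mg/kg, against 90.76, 44.66, 91.4, 56.44 and 66.01 in controls. Every treated liver lay above every control, as for 22.7% of all tested genes that day. The difference was 1.18 ± 0.20 on the log2 scale (SE, n = 5 and 5, limma adjusted p = 2.4e-06), or 0.96 with arrays at a common median. It stood 1.03 above the median change of all tested genes.

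On day 15 the treated livers gave Ptprc signals of 125.82, 138.45, 82.19, 149.8 and 104.65, and the controls 68.95, 73.27, 63.36, 57.84 and 63.75. The groups again did not overlap, as for 30% of tested genes, and replicate 3 was the lowest treated liver. Ptprc rose by 0.85 ± 0.20 (n = 5 and 5, limma adjusted p = 0.00027).

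After the undosed days, Ptprc signals were 91.09, 121.17, 100.7, 93.47 and 71.89 in the rats that had received 80 mg/kg, against 49.82, 44.34, 69.19 and 60.56 in controls. The groups did not overlap, as for 8.08% of tested genes, but the lowest treated liver, 71.89, was close to the highest control, 69.19. The rise was 0.77 ± 0.21 (n = 5 and 4, limma adjusted p = 0.0141), and 0.52 at a common median (adjusted p = 0.0481). On day 4 the change was 0.25 ± 0.21 (n = 4 and 5, adjusted p = 0.422), with treated signals of 85.0, 95.55, 93.22 and 84.67 inside and just above the control range of 60.56 to 90.35. The day 24 call was lost on leaving out either control replicate 3 or treated replicate 2, with an adjusted p of up to 0.0694.

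The dose effect on Ptprc grew between days 4 and 8 by 0.94 ± 0.29 (limma interaction term, adjusted p = 0.0415), where 6.69% of the 10725 tested genes passed in either direction. At a common median this call was lost, and it was lost on leaving out any of 14 of the 19 arrays. For the second probe set of Ptprc the same term was 0.11 ± 0.44 (limma adjusted p = 0.923), and for the average of both it was 0.52 (adjusted p = 0.278). From day 8 to 15 it moved by -0.33 ± 0.28 (adjusted p = 0.539) and from day 15 to 24 by -0.08 ± 0.29 (adjusted p = 0.856). In these last tests 0 of the 5 tested genes of the set were called, beside 4.98% and 42.7% of all tested genes, and 0 and 1 at an unadjusted p under 0.05. Over the 12 groups the order of the geometric means ran from 153 on day 8 at 80 mg/kg, through 118 on day 15, 94.3 on day 24 and 89.5 on day 4 at that dose, to 55.2 in day 24 controls. The other 7 groups lay between 56.1 and 75.4, a span smaller than the largest SD among the livers of 1 group, 0.46 on the log2 scale.

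A second probe set of Ptprc was above the median of all values in 23 arrays and gave other sizes. It changed by 0.62 ± 0.30 on day 8 (n = 5 and 5, limma adjusted p = 0.0765) and 0.55 ± 0.30 on day 15 (adjusted p = 0.111), so that neither day was called. On day 24 it rose by 1.51 ± 0.32 (n = 5 and 4, adjusted p = 0.00155). Its geometric mean was 5.10 in day 24 controls and 11.9 to 15.0 in the other controls, while the 80 mg/kg livers of day 24 had 14.5.

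Cd3g, the gamma chain of the CD3 complex and the T cell marker of the set, rose on day 8 at 80 mg/kg. Its signals were 13.9, 21.19, 20.94, 19.67 and 26.44 in treated livers and 9.47, 15.16, 13.32, 7.6 and 13.9 in controls. Of the treated livers, 4 of 5 were above every control, and replicate 1 lay inside the control range. The rise was 0.80 ± 0.28 (n = 5 and 5, limma adjusted p = 0.0135). It was not called at a common median (0.58, adjusted p = 0.0818), under quantile normalization (0.57, adjusted p = 0.0836) or without control replicate 4 (adjusted p = 0.0592).

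On day 15 Cd3g signals were 24.5, 28.33, 17.9, 28.4 and 16.23 at 80 mg/kg and 14.88, 13.81, 22.78, 13.77 and 14.76 in controls. The treated livers were higher except for an overlap with control replicate 3. The difference, 0.52 ± 0.28 (n = 5 and 5, limma adjusted p = 0.101), did not pass, nor did 0.50 ± 0.29 on day 24 (n = 5 and 4, adjusted p = 0.272) or 0.11 ± 0.29 on day 4 (adjusted p = 0.824). The highest of the 12 group means was 22.5, on day 15 at 80 mg/kg, and the next was that dose on day 8.

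Cd8a, the coreceptor chain of cytotoxic T cells, and Cd2, an adhesion receptor of T and NK cells, stayed under the median of all values in all 57 arrays. Cd8a signals ran from 1.73 to 16.74 and Cd2 signals from 0.62 to 12.92, and within a group the Cd2 values spread by an SD of up to 1.66 on the log2 scale. With all 14217 genes tested and no filter, neither was called against control on any day at either dose. On day 8 Cd8a was 12.57, 7.52, 8.46, 15.5 and 13.21 at 80 mg/kg and 2.09, 3.3, 7.84, 5.61 and 7.71 at 30 mg/kg, so that 4 of 5 livers at the higher dose were above all at the lower. That difference between doses was 1.23 ± 0.45 (limma without filter, n = 5 and 5, adjusted p = 0.0293), where 23.5% of all genes were called as higher, but the 80 mg/kg livers differed from controls by 0.31 ± 0.45 (adjusted p = 0.647). The other Cd8a probe sets were also under the median in all arrays.

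Klrd1, or CD94, which pairs with NKG2 proteins to form receptors of NK cells and some T cells, reached 17.24 in its highest array, 80 mg/kg day 8 replicate 2, and lay just outside the filter. On day 24 its signals were 13.36, 16.99, 15.69, 9.8 and 6.16 in rats that had received 80 mg/kg and 5.67, 7.09, 6.61 and 3.68 in controls. Only replicate 5 of the treated livers fell within the control range. Tested without filter, Klrd1 rose by 1.06 ± 0.32 (n = 5 and 4, limma adjusted p = 0.0314). The 30 mg/kg livers of day 24, at 13.03, 11.15, 16.29 and 8.65, were all above the controls, as for 1.91% of all genes without filter, with a difference of 1.10 ± 0.33 that did not pass (n = 4 and 4, adjusted p = 0.243). The day 24 controls had the lowest Klrd1 mean of the 12 groups, 5.59, against 8.29 to 9.34 in the other controls.

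**Figure D1:**
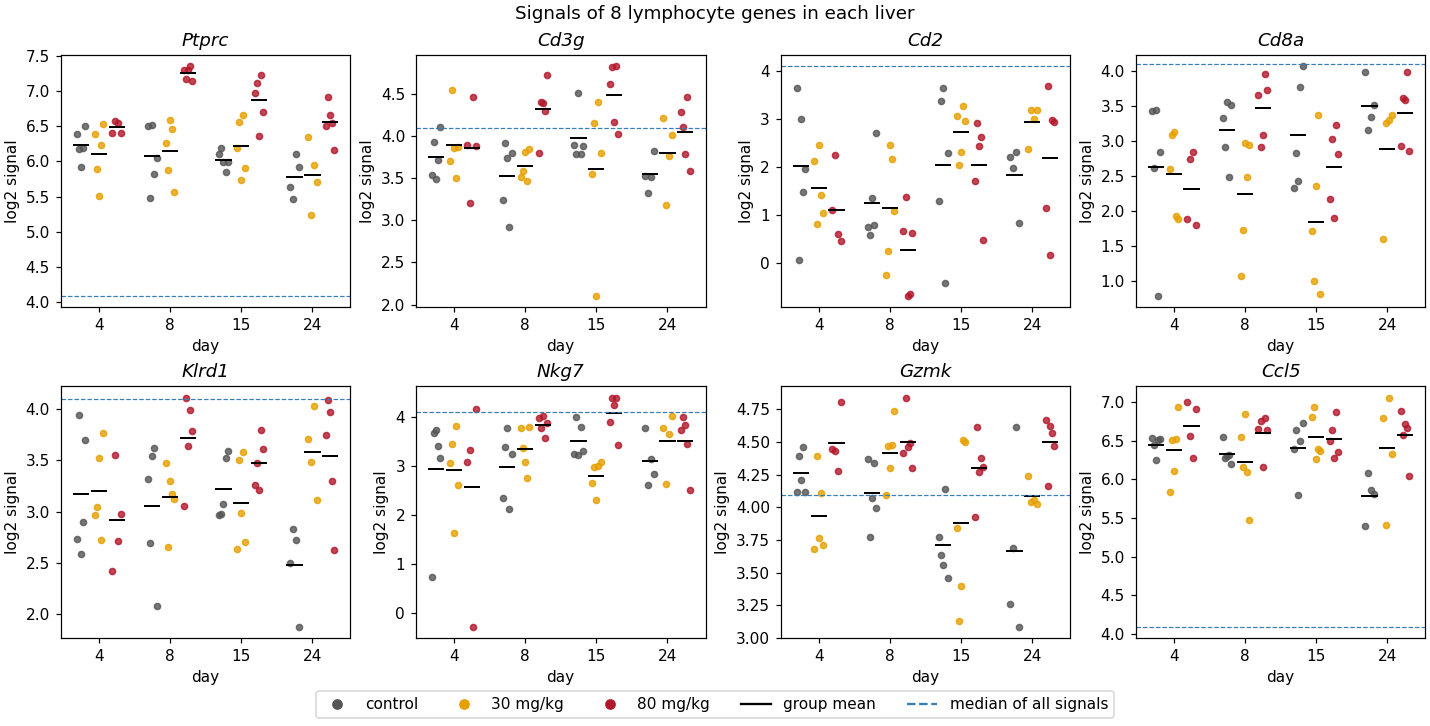
Log2 signal of each of the 8 genes (a panel each, with its own vertical scale) in every liver, by day and dose; points are animals, black bars group means, and the dashed line the median of all deposited values used in the filter. Ptprc at 80 mg/kg stands above the controls on days 8, 15 and 24, while all Cd2 and Cd8a points lie under the line.

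Nkg7, a granule membrane protein needed for cytotoxic degranulation, lay just inside the filter, with 4 arrays above 17.09. Those were 1 of 80 mg/kg on day 4 and 3 of 80 mg/kg on day 15. Its day 15 signals were 14.89, 20.75, 18.93, 20.91 and 10.73 at 80 mg/kg, 9.44, 15.79, 9.28, 13.83 and 9.77 in controls, and 6.26, 7.82, 4.92, 7.99 and 8.37 at 30 mg/kg. All 30 mg/kg livers were below all controls, as for 2.85% of tested genes, and all 80 mg/kg livers above all those at 30 mg/kg, as for 29%, whereas 80 mg/kg and control overlapped. Against control the change was 0.56 ± 0.49 at 80 mg/kg (n = 5 and 5, limma adjusted p = 0.334) and -0.71 ± 0.49 at 30 mg/kg (adjusted p = 0.467). Between the doses it was 1.27 ± 0.49 (n = 5 and 5), given with no test, since Nkg7 passed the filter only through arrays of 80 mg/kg. That limit also holds for its tests at 80 mg/kg against control, none of which passed, and for its place among the 5 tested genes.

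Nkg7 on the other days did not pass at 80 mg/kg. It differed from control by -0.37 ± 0.52 on day 4, where 1 treated liver had a signal of 0.82, by 0.86 ± 0.49 on day 8 and by 0.41 ± 0.52 on day 24 (limma adjusted p = 0.652, 0.142 and 0.656). Its standard errors were the largest of the 5 tested genes, and a difference of 0.86 could not be told from the spread.

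Gzmk, granzyme K, a granule protease of T and NK cells, rose on days 15 and 24 at 80 mg/kg. On day 15 its signals were 15.19, 24.53, 19.32, 20.79 and 19.83 in treated livers and 13.71, 12.42, 11.78, 17.68 and 10.99 in controls. Of the treated livers, 4 of 5 were above every control. Gzmk rose by 0.59 ± 0.22 (n = 5 and 5, limma adjusted p = 0.0171), which was not called at a common median (0.45, adjusted p = 0.061), under quantile normalization (0.44, adjusted p = 0.065) or without 80 mg/kg replicate 2 (adjusted p = 0.0547).

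After the undosed days, Gzmk signals were 25.37, 17.94, 24.57, 23.76 and 22.16 in the 80 mg/kg rats and 9.61, 12.88, 24.54 and 8.5 in controls. The groups overlapped through control replicate 4, at 24.54, which also had the highest actin ratio of all arrays, while the other 3 controls were below every treated liver. The rise was 0.83 ± 0.23 (n = 5 and 4, limma adjusted p = 0.0141). Without the 2 day 24 arrays of the highest actin ratio, a choice made after seeing the data, it was 1.15 (adjusted p = 0.000896), and without control replicate 2 or 5 it was not called (adjusted p of up to 0.0933). Nor was it under quantile normalization (0.60, adjusted p = 0.0794) or with only these groups in the fit (adjusted p = 0.101). On days 4 and 8 Gzmk differed from control by 0.23 ± 0.23 and 0.39 ± 0.22 (adjusted p = 0.498 and 0.127). Its control mean was 19.2 on day 4, 17.3 on day 8, 13.1 on day 15 and 12.7 on day 24, whereas the 80 mg/kg means stayed between 19.7 and 22.7.

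Ccl5, or RANTES, a chemokine that T and NK cells secrete and that draws further T cells and monocytes, rose on day 24 at 80 mg/kg. Its signals were 118.29, 94.85, 104.94, 101.37 and 66.21 in these rats and 42.22, 67.66, 58.11 and 55.88 in controls. Of the treated livers, 4 of 5 were above every control, and replicate 5 lay just under the highest. The rise was 0.79 ± 0.23 (n = 5 and 4, limma adjusted p = 0.0221), which was not called at a common median (0.54, adjusted p = 0.0626) or on leaving out control replicate 2 or treated replicate 1 (adjusted p of up to 0.0947). The 30 mg/kg livers of day 24 spread from 42.62 to 133, with a difference of 0.61 ± 0.24 that did not pass (n = 4 and 4, adjusted p = 0.365).

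During dosing Ccl5 was not called. At 80 mg/kg it differed from control by 0.24 ± 0.23 on day 4, 0.27 ± 0.22 on day 8 and 0.12 ± 0.22 on day 15 (limma adjusted p = 0.491, 0.315 and 0.667). The day 24 controls had its lowest group mean, 55.2, and the other controls had 80.2 to 87.4, close to the 80 mg/kg mean of 95.4 on day 24. The same controls were also the lowest of the 12 groups for Ptprc, Gzmk and Klrd1. Set against the mean of the 4 control groups, a choice made after seeing the data, the day 24 difference of Ccl5 was 0.33 (adjusted p = 0.131), and that of Gzmk 0.56 (adjusted p = 0.00958). On day 15 that of Gzmk was then 0.36 (adjusted p = 0.0583). With this base other values at 80 mg/kg passed in limma that had not passed against the controls of the same day. Gzmk was at 0.55 on day 4 and 0.56 on day 8 (adjusted p = 0.015 and 0.00401), Ptprc at 0.45 on day 4 (adjusted p = 0.0323) and Cd3g at 0.79 on day 15 (adjusted p = 0.00145). Nkg7 was at 0.94 on day 15, given with no test because of how it passed the filter.

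Read over the set at 80 mg/kg, 0 of the 5 tested genes were called on day 4, where limma called 18.3% of all tested genes as higher. On day 8 the count was 2 of 5 (Ptprc, Cd3g), beside 34.2% higher among all genes, and on day 15 it was 2 of 5 (Ptprc, Gzmk), beside 38.8%. These shares are near the background. On day 24 it was 3 of 5 (Ptprc, Gzmk, Ccl5), beside 7.15%, and 4 of 8 without filter, beside 4.96%. The set was chosen with earlier results of these data known, so these counts are no independent result. At an unadjusted p under 0.05 the day 4 count was also 0. None of the 5 tested genes was called as lower on any of these days. The median change of the 5 genes was 0.23, 0.80, 0.56 and 0.77 on days 4, 8, 15 and 24, and that of all tested genes 0.08, 0.15, 0.16 and 0.04. The day 15 median is the value of Nkg7, which passed the filter only through arrays of 80 mg/kg. Without filter the median of the 8 genes was -0.07, 0.53, 0.38 and 0.64, beside 0.10, 0.16, 0.15 and 0.08 for all genes.

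With arrays at a common median, the count called as higher was 0, 1, 1 and 2 of 5 on days 4, 8, 15 and 24, beside 8.77%, 16.4%, 28.7% and 2.48% of all tested genes. On day 24 this scaling moved the calls of all genes from 7.15% higher and 3.08% lower to 2.48% higher and 31.4% lower. Ptprc stayed called on days 8, 15 and 24 under it, and Gzmk on day 24 (0.58, limma adjusted p = 0.0354).

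**Figure D2:**
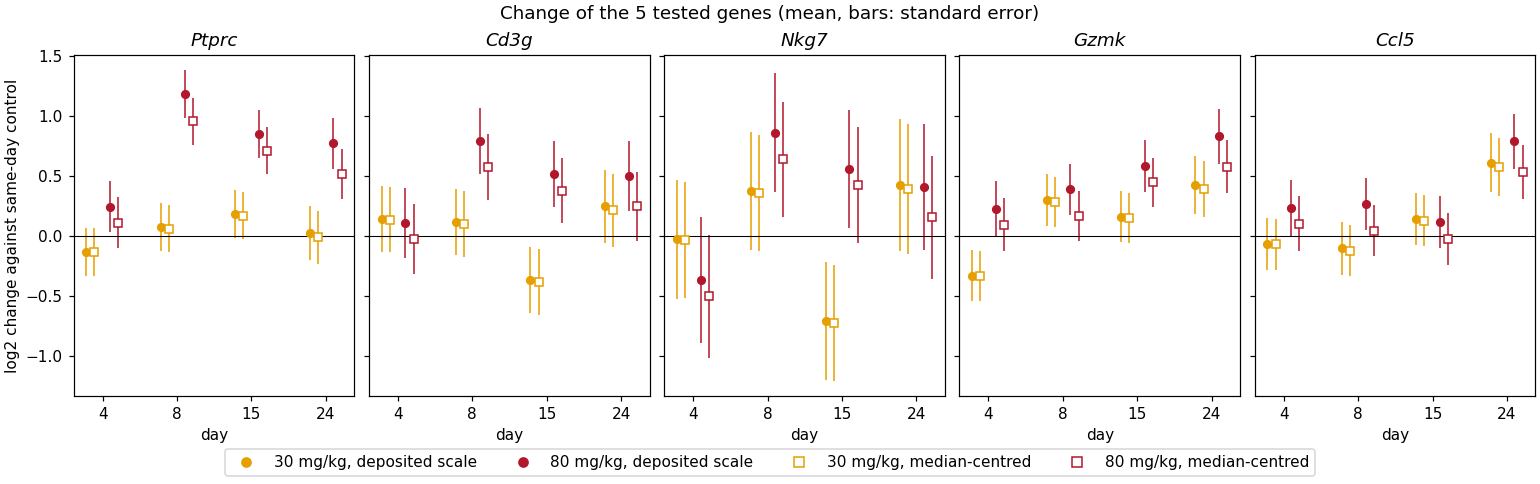
Log2 change of the 5 tested genes against the control of the same day (vertical axis), by day, for 30 mg/kg (orange) and 80 mg/kg (red), with standard errors; circles are the deposited scale and open squares median-centred arrays. At 80 mg/kg Ptprc peaks on day 8 at 1.18, and Gzmk and Ccl5 are highest on day 24 at 0.83 and 0.79.

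At 30 mg/kg, 0 of the 5 tested genes were called on any day by limma, where 0.783%, 0.233%, 4.6% and 0.0932% of all tested genes passed on days 4, 8, 15 and 24. The changes of Ptprc were -0.13, 0.08, 0.19 and 0.02 on those days. Their 95% intervals reached from -0.53 to 0.59 over the 4 days. The second probe set of Ptprc differed on day 24 by 1.45 ± 0.33 (95% interval 0.78 to 2.12, n = 4 and 4, limma adjusted p = 0.0505), so that these intervals hold for the first probe set only. For the second, 4 of 4 livers were above all controls, as for 1.91% of all genes without filter. The changes of Gzmk were -0.33, 0.30, 0.16 and 0.43, and those of Ccl5 -0.07, -0.10, 0.14 and 0.61. Without filter, Cd8a, Cd2 and Klrd1 were not called at 30 mg/kg either. At an unadjusted p under 0.05, 1 of the 5 tested genes passed on day 24 (Ccl5) and 0 on days 4, 8 and 15.

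The higher dose was then set against the lower on each day. On day 8 Ptprc was higher at 80 mg/kg by 1.10 ± 0.20 (limma adjusted p = 1.2e-05) and Cd3g by 0.68 ± 0.28 (adjusted p = 0.0395). These are 2 of 5 genes, beside 31.6% of all tested genes. The call of Cd3g was lost at a common median (0.47, adjusted p = 0.173), under quantile normalization, without filter, with array weights, and on leaving out any of 7 of the 10 arrays. On day 15 Cd3g was higher by 0.88 ± 0.28 (adjusted p = 0.00552) and Ptprc by 0.66 ± 0.20 (adjusted p = 0.0042). These are 2 of the 4 genes other than Nkg7, beside 37%. Without 30 mg/kg replicate 3 of day 15, whose Cd3g signal of 4.31 was the lowest of all arrays, only Ptprc was called. On day 24 only Ptprc of the 5 was called, at 0.75 ± 0.21 (adjusted p = 0.024), beside 4.54%. Its second probe set differed between the doses by 0.06 ± 0.32 (limma adjusted p = 0.94), and the average of both probe sets by 0.40 (adjusted p = 0.231). The call was also lost at a common median (0.53), with the actin covariate, in a fit of these groups alone, and without 30 mg/kg replicate 2 or 4 or 80 mg/kg replicate 2. Gzmk and Ccl5 then differed between the doses by 0.41 (95% interval -0.05 to 0.87) and 0.18 (-0.29 to 0.64), which does not show that the doses acted alike. On day 4 the count was 0 of 5, beside 13.2%, and 1 of 5 at an unadjusted p under 0.05.

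Each array's Ptprc signal was next taken as the base, which asks whether a lymphocyte gene changed by another amount than CD45 and does not depend on the scaling of arrays. On day 8 at 80 mg/kg Ccl5 was lower relative to Ptprc by -0.91 ± 0.22 (n = 5 and 5, limma adjusted p = 0.000204), in 5 of 5 treated livers against all controls. Gzmk was lower by -0.79 ± 0.31 (adjusted p = 0.0169), in 4 of 5. This was not called with each gene's probe sets averaged (-0.51, adjusted p = 0.105), with the actin covariate (-0.64, adjusted p = 0.0583) or without control replicate 4 (adjusted p = 0.0565). Cd3g and Nkg7 differed from Ptprc by -0.38 ± 0.32 and -0.32 ± 0.51, which did not pass. On day 15 Ccl5 was lower by -0.73 ± 0.22 (adjusted p = 0.00352).

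On day 24 none of the 4 genes was called relative to Ptprc, and Gzmk and Ccl5 stood at 0.06 ± 0.33 and 0.02 ± 0.23. All these values depend on the probe set taken as the base, that of highest mean signal. The second probe set of Ptprc changed by 0.62, 0.55 and 1.51 on days 8, 15 and 24, where the first changed by 1.18, 0.85 and 0.77. Values relative to the second alone are not given here. Over all genes, 84.2% were called in either direction relative to Ptprc on day 8, 63.6% on day 15, 65.7% on day 24 and 3.93% on day 4. A gene that differs from Ptprc on days 8 and 15 is therefore no exception among genes.

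**Figure D3:**
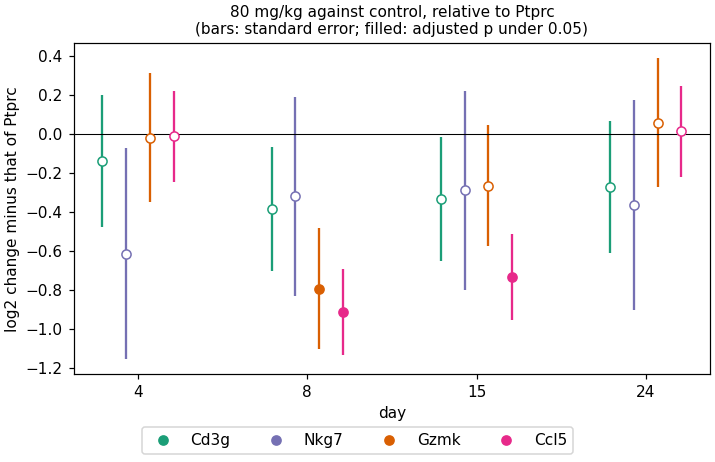
Log2 change at 80 mg/kg against control, minus that of Ptprc on the same arrays (vertical axis), by day, for Cd3g, Nkg7, Gzmk and Ccl5, with standard errors; filled points passed an adjusted p of 0.05. Ccl5 lies at -0.91 and -0.73 on days 8 and 15 and at 0.02 on day 24. Ptprc is taken from its probe set of highest mean signal, and its second probe set gave other sizes.

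The further genes of T cells came from a list of 31, of which 23 were on the array with a probe set of 1 symbol and 11 passed the filter. At 80 mg/kg limma called 1, 6, 6 and 3 of the 11 as higher on days 4, 8, 15 and 24, and 0 as lower, beside 18.3%, 34.2%, 38.8% and 7.15% of all tested genes called as higher. Many of the 11 had low signals. In controls of days 8, 15 and 24, 8, 7 and 8 of them had group means under the median of all values, and at 80 mg/kg 5, 4 and 4. The median change was 0.14, 0.58, 0.57 and 0.59, beside 0.08, 0.15, 0.16 and 0.04 for all tested genes. At a common median the counts were 0, 4, 5 and 1, and 1 gene, Cd4, was then called as lower on day 15 (-0.58, adjusted p = 0.0338).

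Within the T cell list, 3 genes had the largest rises on day 8. Zap70, the kinase that binds the activated receptor, rose by 0.95 ± 0.29 (limma adjusted p = 0.0057). Cd247, the CD3 zeta chain, rose by 0.95 ± 0.27 (adjusted p = 0.00252). For each, 5 of 5 treated livers were above all controls, as for 22.7% of tested genes. Il7r, the receptor for the survival cytokine IL-7, rose by 1.03 ± 0.17 (adjusted p = 1.53e-06). On day 15 Lef1, a transcription factor of naive T cells that acts in other cells too, rose by 1.27 ± 0.25 (adjusted p = 1.85e-05), Il7r by 0.98 and Lat, an adaptor of the receptor, by 0.86 ± 0.27 (adjusted p = 0.00472). Control means of Zap70, Cd247, Lat and Lef1 on these days were 8.67, 8.20, 9.20 and 11.3, under the filter's 17.09. Their means at 80 mg/kg were 16.7, 15.8, 16.7 and 27.3.

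After the undosed days, Cd7, a surface protein of T and NK cells, rose by 0.92 ± 0.22 (limma adjusted p = 0.00539). Its 5 treated livers were above all controls, as for 8.08% of tested genes. Il7r rose by 0.63 ± 0.18 (adjusted p = 0.0201) and Icos, a costimulatory receptor, by 0.59 ± 0.20 (adjusted p = 0.0463). Icos was also the 1 gene called on day 4, at 0.52 ± 0.20 (adjusted p = 0.0449). At a common median these calls of Il7r and Icos were lost. Il7r and Icos were then at 0.37 and 0.34 on day 24, and Icos at 0.39 on day 4 (adjusted p = 0.103, 0.182 and 0.155). Cd4 differed by -0.44 on day 15 and by 0.69 on day 24, and neither passed (adjusted p = 0.116 and 0.0753). The defining chains Cd3d, Cd3e and Cd8b did not pass the filter.

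Of a list of 30 NK and cytotoxic genes, 22 were on the array and 8 passed the filter. At 80 mg/kg limma called 0, 1, 1 and 2 of the 8 as higher on days 4, 8, 15 and 24 and 1 as lower on day 4, with medians of 0.19, 0.46, -0.15 and 0.65. These shares are under those of all tested genes on days 4, 8 and 15 (18.3%, 34.2% and 38.8%) and stand beside 7.15% on day 24. The rises were Prf1, the pore protein perforin, at 0.71 ± 0.27 on day 8 (adjusted p = 0.0254), Hcst, the adaptor DAP10, at 0.72 ± 0.29 on day 15 (adjusted p = 0.0307), and Gzma, granzyme A, at 0.72 ± 0.24 and Il2rb, a chain of the IL-2 and IL-15 receptors, at 0.69 ± 0.21 on day 24 (adjusted p = 0.0446 and 0.0233). None of these 4 was called at a common median. Ncr3, the activating NK receptor NKp30, fell by 0.96 on day 4 (adjusted p = 0.00631), from a control mean of 18.1 to 9.31, near or under the filter's 17.09. At 30 mg/kg Klrg1, an inhibitory receptor of NK and T cells, rose by 0.80 ± 0.21 on day 4 (adjusted p = 0.0488, and 0.0759 at a common median). The NK receptors Ncr1, Klrk1 and Klrb1a did not pass the filter.

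Of 12 genes of T cell regulation, 6 were on the array and 1, Tnfrsf4, passed the filter and was not called at 80 mg/kg on any day. The summed signals of the 11 T cell genes were 197 to 201 in day 8 controls and 249 to 302 at 80 mg/kg, without overlap, and those of the 8 NK and cytotoxic genes 148 to 201 and 196 to 236, with overlap. On day 24 both sums were without overlap, at 174 to 185 against 209 to 280 for the T cell genes and 158 to 172 against 197 to 240 for the NK genes. These sums are on the deposited scale, and sums at a common median are not given here. Array medians averaged 18.5 and 19.99 at 80 mg/kg on days 8 and 24, against 15.9 and 16.8 in controls. On day 24 the sum of 13 macrophage and Kupffer cell genes did not overlap either (3203 to 4111 against 4262 to 5710). That of 16 pan-leukocyte genes did (874 to 1127 against 1093 to 1508).

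Markers of other cell types were counted at 80 mg/kg on the same days, when 34.2%, 38.8% and 7.15% of all tested genes were called as higher on days 8, 15 and 24. Of 16 tested pan-leukocyte genes, 12 were called as higher on day 8, 7 on day 15 and 7 on day 24, Lcp1, the leukocyte plastin, among them at 1.12, 0.99 and 0.62. Of 13 tested macrophage and Kupffer cell genes, 11, 6 and 10 were called as higher, with Cd163, the haptoglobin-haemoglobin receptor, at 0.92 ± 0.14 on day 8 (limma adjusted p = 3.28e-07), while Cd14 fell by 0.73. The sum of these 13 genes was 3630 to 5107 in day 8 controls and 5244 to 6017 at 80 mg/kg. Of 11 hepatocyte genes, 9 were called as lower on day 8 and 9 on day 15, beside 16.6% and 20.5% of all tested genes, and 0 on days 4 and 24. Ptprc and Ccl5 are also made by macrophages. The part of these cell types in the values of Ptprc, Gzmk, Ccl5 and Cd3g was not tested.

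Of 6 tested B and plasma cell genes, none was called as higher on days 4, 8 and 15. Cxcr5 was called on day 24, at 0.61 ± 0.19 (limma adjusted p = 0.0335), but not at a common median (0.35, adjusted p = 0.148). Cd22 fell by 0.72 on day 15. Of 7 tested dendritic cell genes, 4, 3 and 1 were called as higher on days 8, 15 and 24. Among all tested genes, 18.3%, 34.2%, 38.8% and 7.15% were called as higher on days 4, 8, 15 and 24. Only 1 of 12 neutrophil genes passed the filter, and it was not called on any day. Of 8 tested endothelial genes, the largest called rises on day 24 were Pecam1, Tek and Lyve1, at 0.58, 0.51 and 0.44. Their limma adjusted p was 0.0082, 0.000733 and 0.0141, and 0.0729, 0.073 and 0.292 at a common median. Kdr was called as lower on days 8 and 15, at -0.30 and -0.28. The day 24 sums of the 8 genes overlapped, at 1388 to 1600 in controls and 1568 to 2079 at 80 mg/kg.

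**Figure D4:**
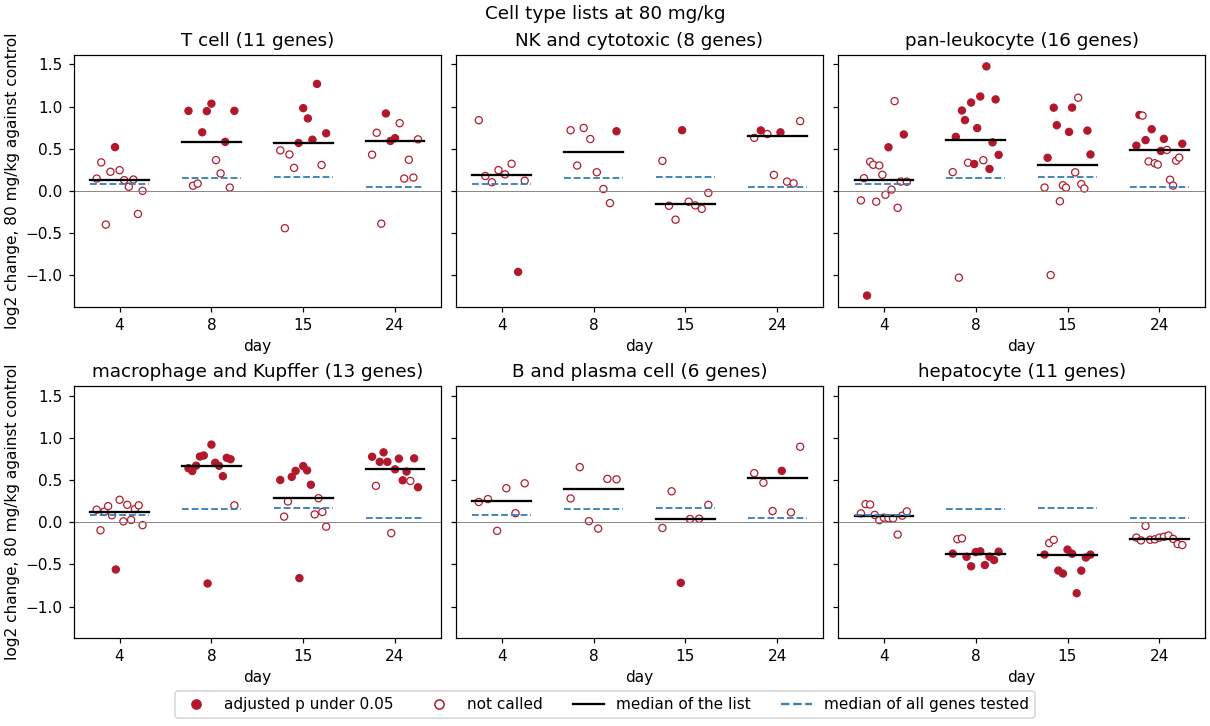
Log2 change at 80 mg/kg against the control of the same day (vertical axis) of the tested genes of 6 cell type lists, by day; filled points passed an adjusted p of 0.05, black bars are the list's median and dashed bars that of all tested genes. T cell genes have medians of 0.58, 0.57 and 0.59 on days 8, 15 and 24, and NK genes of -0.15 on day 15.

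Chemokines and their receptors were described through a list of 21 genes, 15 of them tested. At 80 mg/kg limma called 4, 5, 5 and 1 as higher and 1, 2, 3 and 1 as lower on days 4, 8, 15 and 24. The higher ones stand beside 18.3%, 34.2%, 38.8% and 7.15% of all tested genes, shares near the background. The lower ones stand beside 16.6%, 20.5% and 3.08% on days 8, 15 and 24, near the background too. The share called as lower on day 4 is not given here. Ccr1, a receptor for Ccl5, was higher by 1.43 ± 0.47, 1.52 ± 0.44 and 1.95 ± 0.44 on days 4, 8 and 15. Its group means were 4.85, 7.10 and 6.11 in controls, under the filter's 17.09, and 13.1, 20.3 and 23.6 at 80 mg/kg. Through which groups Ccr1 passed the filter is not given here, so its changes are given with no test. The counts above include it. Cxcl10, an interferon-induced ligand that draws T and NK cells, rose by 1.51 ± 0.35 on day 8 (adjusted p = 0.00035), and Cxcl16, ligand of a receptor on liver NKT cells, by 1.82 ± 0.19 on day 15 and 0.79 ± 0.20 on day 24 (adjusted p = 5.14e-12 and 0.00723). S1pr1, which guides lymphocytes out of tissue and is also made by endothelium, fell by 1.08, 1.52 and 2.18 on days 4, 8 and 15, and Cxcl12 by 0.48, 1.37 and 0.61 on days 8, 15 and 24.

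Among 15 tested genes of MHC class I and the interferon response, limma called 9 as higher and 1 as lower on day 8 at 80 mg/kg, and 1 and 0 on day 4, 1 and 1 on day 15 and 0 and 0 on day 24. Of all tested genes, 18.3%, 34.2%, 38.8% and 7.15% were called as higher on days 4, 8, 15 and 24. On days 8, 15 and 24, 16.6%, 20.5% and 3.08% were called as lower. Mx1, an interferon-induced antiviral protein, rose by 1.42 ± 0.33 on day 8 (adjusted p = 0.00033), while B2m, the light chain of MHC class I, fell by 0.36 (adjusted p = 0.00147).

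Over the 57 arrays the 5 tested genes followed each other loosely. Pearson correlations of their log2 signals ran from 0.185 to 0.544 over the 10 pairs, with a median of 0.28, and those of the deviations from group means from 0.0149 to 0.515, with a median of 0.148. Ccl5 and Ptprc had the highest of the latter. These are descriptions over arrays that share their scaling. The genes outside the set most correlated with the mean of their standardised signals were Ly86 (0.81), Limd2 (0.80), Fcer1g (0.79), Axl (0.79), Prkcb (0.79), Pygb (0.78), Lgmn (0.78), RT1-Db1 (0.77), Cyrib (0.77) and C1qc (0.77). Over deviations from group means they were Plac8 (0.73), Slpi (0.72), Axl, Ly86, Fcer1g, Plau, Ptgs1, Marchf1, Ctss and Limd2 (0.66). Fcer1g, the signalling chain of Fc receptors, C1qc, a chain of complement C1q, and Ctss, a lysosomal protease of antigen-presenting cells, are known from macrophages, and C1qc is in the macrophage list. None of the genes of the T cell and NK lists is among the 10 of either ranking.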

How the data were processed

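Liver RNA of 57 rats was measured on Affymetrix Rat Genome arrays. The authors deposited 1 intensity per probe set and array, made with MAS5, per the submitters' processing notes; the version and the target scaling are not given in the sources used here, and detection calls were not used here. Of the probe sets, 20832 name 1 gene symbol, 436 several and 9831 none, and 57 control probe sets were left out; 20764 of the 20832 matched RefSeq by Entrez ID. The filter left 18677 probe sets and, with the probe set of highest mean per gene, 10725 genes.

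Log2 intensities were fitted with limma 3.58.1 in R 4.3.3 as 12 group means over all 57 arrays, with trended eBayes moderation, two-sided tests and Benjamini-Hochberg adjustment over all tested genes, called under 0.05. A replicate is an animal, numbered in the labels. Animals of the same replicate number did not deviate together: 0 of 18 same-numbered pairs of 80 mg/kg and control had a correlation over 0.1 (-0.08 to 0.06). That does not show whether animals were matched, and the main fit used no pairing. The 4 or 5 arrays a group limit the precision. The code was tested on simulated data.

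Alternatives were median or quantile scaling, no filter or a stricter one, an offset of 3.31, averaged probe sets per gene, array weights, no trend, the replicate block, the actin ratio as covariate, only the groups compared, each array left out, and 3 added after seeing the data. Named were all members, per list the largest called changes at each day (80 mg/kg: up to 3 rises and 2 falls), and the 10 genes most like the set; Cd4 and Tnfrsf4 were named after their values were seen. Members and lists were chosen with earlier results of these data known.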

Additional observations from a re-analysis of the deposited data

Results flagged for a closer look

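Of 96 sets checked for an outlying signal, each 1 gene in 1 group of 4 or 5 arrays, 5 had an array far from the others of its group, and chance gives about 1 in 20. Gzmk was highest in 30 mg/kg day 24 replicate 1, at 18.94 against 16.28 to 16.61. Ccl5 was lowest in 80 mg/kg day 8 replicate 3, at 71.7 against 99.14 to 110.5. Cd8a was lowest in 30 mg/kg day 24 replicate 1, at 3.04. Cd3g was highest in control day 15 replicate 3, at 22.78 against 13.77 to 14.88, and this array alone made the control range overlap the treated livers. Nkg7 was lowest in control day 4 replicate 1, at 1.65.

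The effect of 80 mg/kg on Ptprc differed between days, by 0.935 on the log2 scale from day 4 to day 8 (limma interaction term, adjusted p = 0.0415). For the second probe set of Ptprc that difference was 0.11 (adjusted p = 0.923).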

How the results depend on the processing

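The rise of Ptprc at 80 mg/kg on days 8 and 15 kept its direction and its call when each array was left out and under every alternative run except its second probe set. On day 24 it kept its direction under all of them.

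With arrays at a common median, under quantile normalization or with the stricter filter, 1 gene in place of 2 was called at 80 mg/kg on day 8 and likewise on day 15. Against the mean of the 4 control groups, 2 were called on day 4. Between the doses, 1 was called on day 8 under these scalings, the stricter filter and array weights, 1 on day 15 with the stricter filter, and 0 on day 24 at a common median, with the mean of probe sets, the actin covariate or only the groups compared. The change from day 4 to 8 gave 0 calls under both scalings, without filter, with the mean of probe sets and with the actin covariate, and that from day 15 to 24 gave 1 with quantile normalization, array weights or only the groups compared. Relative to Ptprc, 1 was called on day 4 with array weights, 1 on day 8 with the stricter filter, the mean of probe sets or the actin covariate, and 2 on day 15 without filter or with array weights. The stricter filter leaves fewer of the set to test, and for the other settings the cause was not tested.

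Leaving out 1 array at a time gave 1 to 2 calls against control on day 8 (1 without control replicate 4), 1 to 2 on day 15 (1 without 80 mg/kg replicate 2) and 1 to 3 on day 24 (1 without control replicate 2). It gave 0 to 1, 1 to 2, 1 to 4 and 0 to 1 between the doses on days 4, 8, 15 and 24, 0 to 1 for the change from day 4 to 8 and from day 15 to 24, and 1 to 2 relative to Ptprc on day 8. The day 15 range between the doses counts Nkg7, which passed the filter only through arrays of 80 mg/kg.

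Only differences that were not called changed sign. At a common median and under quantile normalization these were Cd3g on day 4 (-0.023 and -0.035) and Ccl5 on day 15 (-0.021 and -0.079) at 80 mg/kg, and Ptprc on day 24 at 30 mg/kg (-0.0084 and -0.0015). At 30 mg/kg, Ptprc on day 4 was 0.11 with the mean of probe sets and 0.36 with the second probe set, Ptprc on day 8 was -0.012 with the actin covariate, and Gzmk on day 15 was -0.035 with array weights. Against the mean of the 4 control groups, Ccl5 and Ptprc on day 4 were 0.14 and 0.077, Cd3g on day 8 -0.053, Gzmk on day 15 -0.059 and Ptprc on day 24 -0.22, all at 30 mg/kg. Leaving out 1 array at a time gave, at 80 mg/kg, -0.093 to 0.33 for Cd3g and -0.92 to 0.58 for Nkg7 on day 4 and -0.037 to 0.20 for Ccl5 on day 15. At 30 mg/kg it gave on day 4 -0.20 to 0.07 for Ccl5, -0.020 to 0.24 for Cd3g, -0.58 to 0.29 for Nkg7 and -0.23 to 0.022 for Ptprc. On day 8 it gave -0.26 to 0.086 for Ccl5, -0.028 to 0.22 for Cd3g and -0.068 to 0.22 for Ptprc, on day 15 -0.0099 to 0.22 for Ccl5 and -0.57 to 0.0092 for Cd3g, and on day 24 -0.15 to 0.22 for Ptprc.

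With the replicate number as a block, the count called against control stayed at 0, 2, 2 and 3 on days 4, 8, 15 and 24 at 80 mg/kg. Ptprc at 30 mg/kg on day 24 was then -0.0402. Same-numbered animals of 80 mg/kg and control did not deviate together, which does not show whether they were matched. Signals near or under the median of all values limit Cd2, Cd8a, Klrd1 and Nkg7, whose spread within groups was large.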
